A study of Mus musculus with 18 samples.

Results

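The 9 genes described here encode cargo adaptors and scaffolds of cytoplasmic dynein, out of 17198 genes in the deposited table. They were chosen by symbol and not by a rule on their measured values, though earlier results of these data were known. They are Bicd1, Bicd2, Hook1, Hook2, Hook3, Nin, Rilp, Spag9 and Mapk8ip3. Each was measured by RNA sequencing in 18 cultures of mouse DRG neurons (DRG, dorsal root ganglion), which are sensory cells with axons running to skin and muscle. The mice were wild type (WT) or heterozygous for Dynlrb1 tm1a (HET), and RNA was taken at 12, 24 or 48 h in culture, with 3 biological replicates in each of the 6 groups. Dynlrb1 encodes a light chain of the dynein motor, and tm1a is a targeted insertion present on 1 of the 2 copies in every cell of the HET animal. The labels give no strain, age or sex and no agent added to the medium, and they do not say whether ganglia of several mice were pooled.

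Dynein carries endosomes, lysosomes, mitochondria and signalling complexes along microtubules toward the cell body. The motor is weak on its own: an activating adaptor binds dynein and dynactin at one end of a long coiled coil and a cargo, often through a Rab GTPase, at the other. In a sensory neuron, whose axon is very long, this transport returns growth factor signals, injury signals and worn organelles to the soma. BICD proteins link dynein to Rab6 vesicles and the nuclear envelope, Hook proteins to early endosomes, ninein to the centrosome, RILP to late endosomes through Rab7, and the scaffolds JIP4 (Spag9) and JIP3 (Mapk8ip3) to lysosomes and JNK signalling complexes.

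The labels were checked first on Dynlrb1. Its normalized count was 5229 to 6674 in the 9 WT cultures and 2716 to 4087 in the 9 HET cultures, with no overlap. Cultures of 1 group correlated across genes at r of 0.978 to 0.992. All 8 neuron markers were detected, Tubb3 with a mean of 1132 FPKM (fragments scaled to transcript length and to the library total). Markers of glia, fibroblasts, macrophages, endothelium and cycling cells had values as well. Among them the highest mean was 227 FPKM (Apoe, glia) and the lowest single value 0.073 FPKM (Ccnb1, cycling cells). No gene has a normalized count of 0 in the deposited columns, so a value above 0 does not by itself show detection. The summed normalized count of 4 cycling markers was 204 to 465 in all cultures at 12 and 24 h. At 48 h it was 3497, 2441 and 1530 in WT cultures 1, 2 and 3 and 2331, 1534 and 364 in HET cultures 1, 2 and 3. The sum of 5 fibroblast markers was 4375 to 9447 before 48 h, 13431 to 22995 in WT at 48 h and 11014 to 20387 in HET at 48 h. The sum of 7 glial markers went the other way, from 36140 to 52223 at 12 h to 17631 to 25184 at 48 h. In both genotypes the 48 h culture numbered 3 stood nearest to the 12 h cultures. The SD over genes of its log2 difference from the 12 h mean was 0.71 in WT and 0.46 in HET, against 0.90 and 0.98 for the other two WT cultures and 0.78 and 0.63 for the other two HET cultures.

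The promoters of 4 genes are printed because their genes carry the largest changes described below: Rilp, Bicd2 and Hook2, which rose with time in WT cultures, and Spag9, which fell. Each run is 230 bases of the plus strand, 250 to 21 bases before the RefSeq transcript start, from GRCm38.p6 (the mm10 build named in the submitters' processing notes). Capitals mark a GC box (GGGCGG, the core recognised by Sp1 family factors) or an E-box (CACGTG), searched on both strands. The windows lie at chr11:75509844-75510073 for Rilp, chr13:49341299-49341528 for Bicd2, chr8:84990373-84990602 for Hook2 and chr11:93995841-93996070 for Spag9.
Rilp: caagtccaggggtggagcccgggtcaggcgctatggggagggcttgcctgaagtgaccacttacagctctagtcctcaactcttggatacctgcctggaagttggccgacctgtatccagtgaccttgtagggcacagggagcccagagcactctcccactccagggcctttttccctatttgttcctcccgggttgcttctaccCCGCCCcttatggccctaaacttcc
Bicd2: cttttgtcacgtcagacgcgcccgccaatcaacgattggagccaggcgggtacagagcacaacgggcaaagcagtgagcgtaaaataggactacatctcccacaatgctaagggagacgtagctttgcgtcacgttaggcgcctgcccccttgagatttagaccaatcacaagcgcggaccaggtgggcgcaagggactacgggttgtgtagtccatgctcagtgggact
Hook2: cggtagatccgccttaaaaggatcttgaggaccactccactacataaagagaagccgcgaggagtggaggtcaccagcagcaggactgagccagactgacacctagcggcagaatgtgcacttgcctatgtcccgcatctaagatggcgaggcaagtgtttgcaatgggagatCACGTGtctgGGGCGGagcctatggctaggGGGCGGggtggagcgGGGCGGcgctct
Spag9: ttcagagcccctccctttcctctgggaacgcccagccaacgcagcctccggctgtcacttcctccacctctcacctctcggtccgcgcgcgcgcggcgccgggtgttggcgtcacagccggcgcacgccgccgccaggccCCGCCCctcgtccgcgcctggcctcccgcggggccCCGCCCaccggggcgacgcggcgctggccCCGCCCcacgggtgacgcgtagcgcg
The Rilp window held 1 GC box, on the minus strand, and the Bicd2 window none. The Hook2 window held 3 GC boxes and the only E-box found in a member's window. The printed Spag9 window held 3 GC boxes. Its GC content was 78.3%, against 58.7% for Rilp, 56.1% for Bicd2 and 59.1% for Hook2. Spag9 had a further window at another start (chr11:94043880-94044109), not printed, with 0 GC boxes and a GC content of 38.7%. RefSeq entries matched 8 of the 9 genes, with 11 windows in all, and Hook3 had no match. A GC box was in 6 of these 11 windows and in 29.8% of all 32851 windows of that length. An E-box was in 1 of 11 and in 5.35% of all. The cyclic AMP response element (TGACGTCA) was in 0 of 11 and 1.28% of all, and the AP-1 site (TGANTCA) in 0 of 11 and 6.34% of all. None of these motifs contains another. A match is only a run of letters.

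Across the 18 cultures the adaptors differed widely in level. The scaffolds were highest: Mapk8ip3 (ENSMUSG00000024163, chr17:24892153-24936977) averaged 115 FPKM, from 97.7 to 134, and Spag9 (ENSMUSG00000020859, chr11:93996091-94126085) averaged 62.4 FPKM, from 45.4 to 70.5. Bicd2 (ENSMUSG00000037933, chr13:49341585-49387026) followed at 29.5 FPKM, from 19.3 to 40.9, ahead of Bicd1 (ENSMUSG00000003452, chr6:149408886-149563329) at 11.9 FPKM, from 10.6 to 13.2. Hook3 (ENSMUSG00000037234, chr8:26021421-26119224) averaged 9.25 FPKM and ninein, Nin (ENSMUSG00000021068, chr12:70011435-70113717), 7.11 FPKM. The lowest were Hook1 (ENSMUSG00000028572, chr4:95967240-96025413) at 2.99 FPKM, Hook2 (ENSMUSG00000052566, chr8:84990603-85003349) at 2.02 FPKM and Rilp (ENSMUSG00000038195, chr11:75510094-75513168) at 1.95 FPKM. Compared within each culture, Hook3 was above Nin in 17 of 18, Hook1 above Hook2 in 17 of 18 and Hook2 above Rilp in 15 of 18, and every other neighbour in this order kept its place in all 18. The 9 levels added up to 215 to 265 FPKM per culture, of which the 2 JIP scaffolds made 66.3 to 78.6%. The coefficient of variation over all 18 cultures was 50.4% for Rilp, 20.6% for Hook2, 19.5% for Bicd2, 15.6% for Nin, 12.3% for Hook1, 12.0% for Hook3, 11.7% for Spag9, 9.25% for Mapk8ip3 and 6.33% for Bicd1. Gene positions are from GENCODE M21 on GRCm38.

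**Figure D1:**
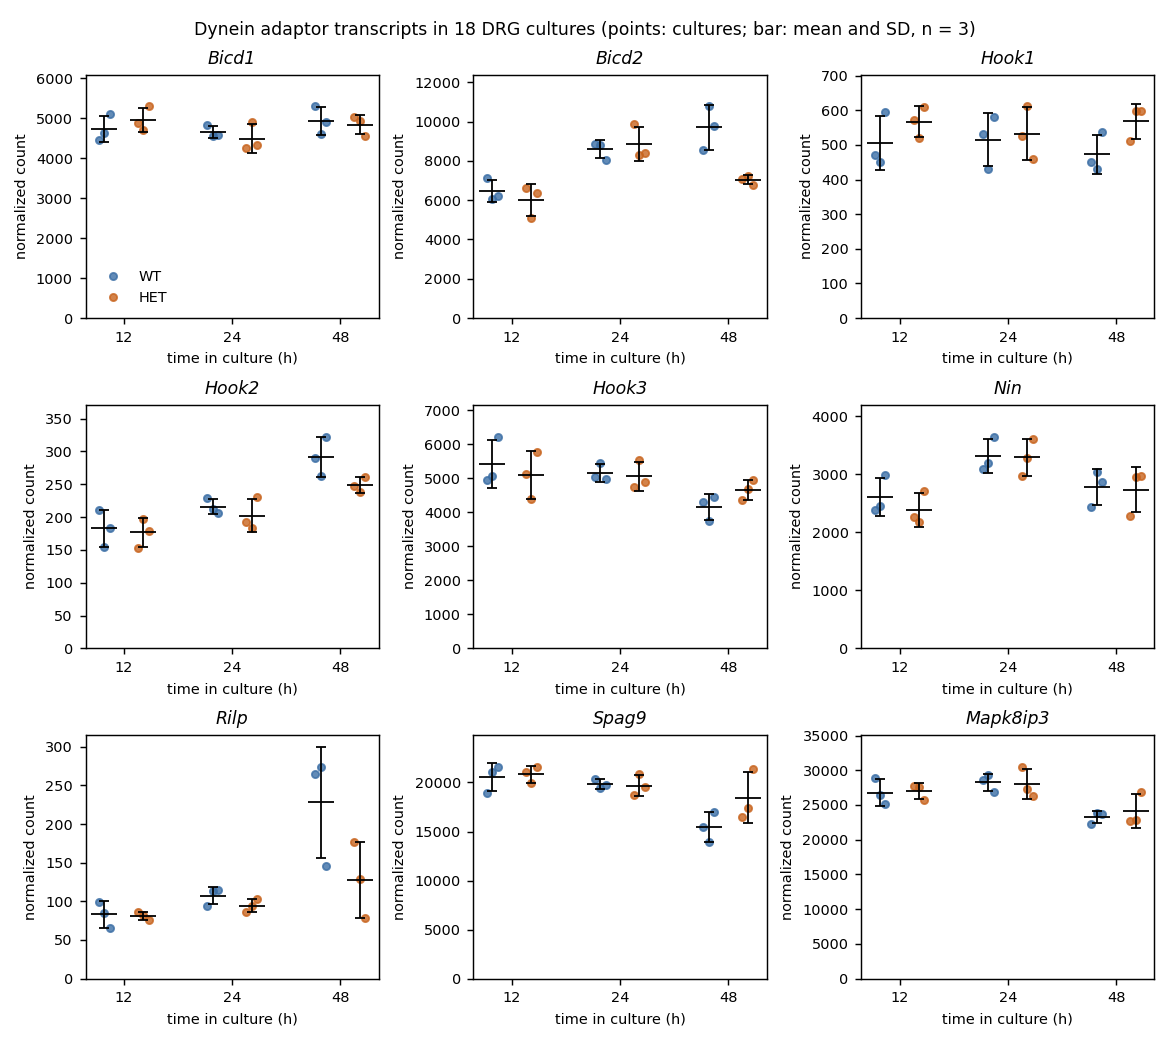
Normalized count (vertical axis, from 0) of each of the 9 adaptor genes against time in culture (12, 24 and 48 h), with points for single cultures (blue WT, orange HET) and bars for the mean and SD of 3 cultures. Bicd2 in HET at 48 h lies between 6781 and 7230, below all WT cultures of that time (8526 to 10773), and Rilp at 48 h runs from 145 to 274 in WT and from 78.2 to 176 in HET.

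The first question was whether the loss of 1 Dynlrb1 copy went with a change in adaptor transcripts. Between genotypes 0 of 9 adaptors passed an adjusted p of 0.05 in limma at 12 h, at 24 h, at 48 h or in the average over the times. The background was as thin: 0.00581% of all genes passed at 12 h, 0.00581% at 24 h, 0% at 48 h and 0.0174% in the average, of which 0.0116% were higher. Dynlrb1 itself, whose groups did not overlap, passed at 24 h (adjusted limma p 0.0390) and in the average (adjusted limma p 2.85e-05). It missed at 12 h (adjusted limma p 0.0655) and at 48 h (adjusted limma p 0.0501). At a single time the test can therefore miss a change of that size. At an unadjusted p of 0.05, 0 adaptors passed at 12 h, 0 at 24 h, 3 at 48 h (Bicd2, Rilp and Spag9) and 2 in the average (Bicd2 and Rilp). Labels do not say whether replicates came from separate animals or dissections, so p-values measure the spread between these cultures.

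Bicd2 had the lowest p of the 9 at 48 h. Its normalized count then was 8526, 10773 and 9791 in WT cultures 1, 2 and 3 and 7087, 7230 and 6781 in HET cultures 1, 2 and 3. Every HET culture was below every WT culture, as for 24.0% of all genes at that time in either direction. On the log2 scale HET differed from WT by -0.46 (SE 0.11), a level of 72.8% of WT, and the adjusted limma p was 0.0526. At 48 h same-numbered WT and HET cultures deviated together (r of 0.21 to 0.46 across genes). With the replicate number as a block at every time, and a variance pooled over the times, the adjusted limma p of Bicd2 was 0.00641. It also fell under the threshold when 1 of 4 cultures was left out: 0.0493 without WT 48 h culture 3, 0.0486 without HET 12 h culture 2, 0.0488 without HET 24 h culture 1 and 0.0486 without HET 48 h culture 1. With WT 48 h culture 2 left out it was 0.394, and the log2 fold change was -0.38. At 12 h and 24 h the Bicd2 log2 fold changes were -0.11 and 0.04, with overlapping groups. Groups without overlap made up 15.1% of all genes at 12 h and 5.60% at 24 h, and 0 of the 9 adaptors at either time. In the authors' deposited table the 48 h log2 fold change of Bicd2 was -0.46 with an adjusted p of 0.0137, and it was the only adaptor among the 1028 genes (5.98%) past 0.05 there.

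Rilp, the Rab7 effector, showed the largest difference in size. At 48 h its normalized count was 265, 274 and 145 in WT cultures 1, 2 and 3 and 176, 129 and 78.2 in HET cultures 1, 2 and 3. Each HET culture was below the WT culture of the same number, but the groups overlapped, because WT culture 3 was below HET culture 1. On the log2 scale HET differed from WT by -0.85 (SE 0.28), a level of 55.5% of WT, and the adjusted limma p was 0.0950, or 0.0105 once the replicate number was a block. Leaving out WT 48 h culture 3 gave -1.15 (adjusted limma p 0.0317), and leaving out HET 48 h culture 1 gave -1.12 (adjusted limma p 0.0420). Leaving out HET 48 h culture 3 gave -0.54 (adjusted limma p 0.449). At 12 h the counts were 99.2, 84.9 and 65.0 in WT and 85.8, 81.7 and 75.5 in HET, and at 24 h 94.3, 113 and 115 in WT and 86.1, 93.5 and 102.8 in HET, so the groups overlapped at both times.

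With the replicate block, Bicd2 and Rilp, both lower in HET, were 2 of 9 adaptors past the threshold at 48 h. The block fit called 12.3% of all genes at that time, 7.29% lower and 5.04% higher. The summed cycling markers and the distance from the 12 h cultures, given above by culture, were also lower in HET than in the WT culture of the same number at 48 h. So were the summed fibroblast and macrophage markers. The summed neuron markers were higher in HET in each such pair (433075 to 457245 in WT, 471322 to 473874 in HET). Glial and endothelial sums went both ways. The part of these sums and of that distance in the Bicd2 and Rilp values was not tested. In RNA from whole cultures, fewer cells of a type and less RNA per cell cannot be told apart. Without both 48 h cultures numbered 3, Bicd2 had a log2 fold change of -0.42 (adjusted limma p 0.152) and Rilp of -0.83 (adjusted limma p 0.101).

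The other adaptors differed less between genotypes at 48 h. Spag9 (JIP4) had 15419, 13930 and 17018 in WT cultures 1, 2 and 3 and 16488, 17405 and 21402 in HET cultures 1, 2 and 3. Each HET culture was above the WT culture of its number, while the groups overlapped. Its log2 fold change was 0.25 (SE 0.097), and the adjusted limma p was 0.149, or 0.0580 with the replicate block, and without HET 48 h culture 3 it was 0.14 (adjusted limma p 0.599). Hook2, which serves the centrosome and cilium, had 289, 262 and 323 in WT and 247, 238 and 261 in HET, without overlap, and a log2 fold change of -0.22 (SE 0.15, adjusted limma p 0.409). For Hook1 the log2 fold change was 0.27 (adjusted limma p 0.300) and for Hook3 0.16 (adjusted limma p 0.404), both with overlapping groups. Mapk8ip3 (0.05), Nin (-0.03) and Bicd1 (-0.03) had log2 fold changes near 0 at 48 h.

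Averaged over the times, the unadjusted 95% interval of the HET level as a percent of WT was 80.8 to 97.1% for Bicd2 and 62.1 to 99.0% for Rilp. The other seven intervals held 100%. They ran from 92.9 to 107% for Bicd1, 94.1 to 109% for Mapk8ip3, 97.8 to 115% for Spag9, 92.0 to 111% for Hook3, 86.3 to 107% for Nin, 80.8 to 105% for Hook2 and 98.7 to 127% for Hook1. A p that misses the threshold does not show equal levels; these intervals bound what the model allows.

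**Figure D2:**
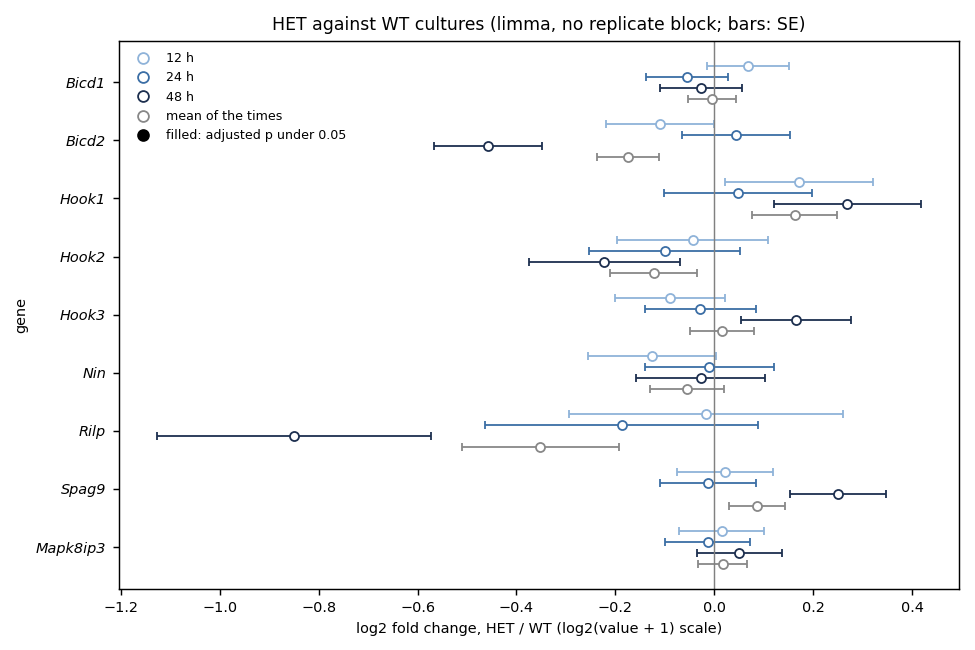
Log2 fold change of HET against WT (horizontal axis, log2(value + 1) scale) for each adaptor gene at 12, 24 and 48 h and as the mean of the times, with bars for the SE and open points where the adjusted limma p is 0.05 or more. All points are open, and the farthest from 0 are Rilp (-0.85) and Bicd2 (-0.46) at 48 h.

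The second question was how the adaptors changed over time in culture, when axotomised neurons regrow their axons. From 12 to 48 h in WT, 5 of 9 adaptors passed in limma: Rilp, Hook2 and Bicd2 rose, and Spag9 and Hook3 fell. Over all genes 47.1% passed, 30.0% higher and 17.1% lower, so a share of this size is near the background. Cultures of the 2 times did not overlap for 6 of 9 adaptors and 55.3% of all genes in WT, and for 2 of 9 adaptors and 29.7% of all genes in HET. The median of all genes moved by 0.11 on the log2 scale in the same comparison, and by 0.01 in the deposited columns without a label, which are scaled in another way. No adaptor named here as changed went the other way with those columns.

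Rilp rose most, from 99.2, 84.9 and 65.0 at 12 h to 265, 274 and 145 at 48 h in WT. All cultures of 48 h were above all of 12 h and 24 h. The log2 fold change was 1.41 (SE 0.28), a 2.66-fold rise, and the adjusted limma p was 6.78e-04. In HET it went from 85.8, 81.7 and 75.5 to 176, 129 and 78.2, a log2 fold change of 0.58 (SE 0.28, adjusted limma p 0.160). HET 48 h culture 3, at 78.2, lay within the range of the 12 h cultures. Without that culture the log2 fold change in HET was 0.89 (adjusted limma p 0.0185). The difference of the 2 changes, HET minus WT, was -0.83 (SE 0.39) and the adjusted limma p was 0.555.

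Bicd2 rose in both genotypes by 24 h. In WT it was 7105, 6081 and 6211 at 12 h, 8859, 8824 and 8048 at 24 h and 8526, 10773 and 9791 at 48 h. The WT change from 12 to 24 h was 0.41 (SE 0.11, adjusted limma p 0.0467), and from 12 to 48 h 0.58 (SE 0.11), a 1.50-fold rise for which the adjusted limma p was 4.84e-04. In HET it was 6619, 5090 and 6340 at 12 h and 9869, 8294 and 8412 at 24 h, a change of 0.56 (SE 0.11, adjusted limma p 0.00309). At 48 h it was 7087, 7230 and 6781, with every culture above those of 12 h and below those of 24 h. The HET log2 fold change from 24 to 48 h was -0.33 (adjusted limma p 0.105) and from 12 to 48 h 0.23 (adjusted limma p 0.149). The HET minus WT difference in the 12 to 48 h change was -0.35 (SE 0.15) and the adjusted limma p was 0.548. For this difference 0 of 9 adaptors and 0% of all genes passed, with 2 adaptors, Bicd2 and Rilp, at an unadjusted p under 0.05. The WT call from 12 to 24 h was lost with the unlabelled columns (0.37, adjusted limma p 0.0750), and its adjusted limma p was 0.0519 to 0.159 without any 1 of 12 cultures. These were all 6 compared, WT 48 h culture 3, HET 12 h culture 5, HET 24 h cultures 2 and 5, and HET 48 h cultures 1 and 2.

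Among the Hook genes the low one rose and the high one fell. Hook2 in WT was 211, 154 and 183 at 12 h, 229, 212 and 207 at 24 h and 289, 262 and 323 at 48 h. All 48 h cultures were above all earlier ones, and the log2 fold change from 12 to 48 h was 0.68 (SE 0.15, adjusted limma p 0.00182). In HET, Hook2 went from 153, 197 and 179 to 247, 238 and 261, again without overlap, with a log2 fold change of 0.50 (SE 0.15, adjusted limma p 0.0396). It was the single adaptor called from 12 to 48 h in HET, where 14.2% of all genes were. That call was lost with the unlabelled columns (adjusted limma p 0.0794), without WT 24 h culture 1 (adjusted limma p 0.0506) or any of the 6 cultures compared (0.0517 to 0.134). Hook3, a partner of the FHF complex on endosomes, fell in WT from 4960, 5071 and 6233 to 4311, 3732 and 4465, a log2 fold change of -0.38 (SE 0.11, adjusted limma p 0.0113). It lost the call without WT 12 h culture 5 (adjusted limma p 0.0674) or WT 48 h culture 2 (adjusted limma p 0.0679). In HET the Hook3 groups of 12 and 48 h overlapped, with a log2 fold change of -0.12 (adjusted limma p 0.477). Hook1, the paralog first known from sperm head shaping, had log2 fold changes of -0.09 in WT and 0.00 in HET from 12 to 48 h.

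The JIP scaffolds, the most abundant adaptors here, had lower counts in WT at 48 h. Spag9 in WT was 18963, 21083 and 21611 at 12 h, 20370, 19390 and 19780 at 24 h and 15419, 13930 and 17018 at 48 h. All WT cultures of 48 h were below all earlier ones, and the change from 12 to 48 h was -0.41 (SE 0.097, adjusted limma p 0.00250). In HET it went from 21032, 19901 and 21570 to 16488, 17405 and 21402. HET 48 h culture 3 lay within the 12 h range. The HET log2 fold change was -0.19 (adjusted limma p 0.199), and without that culture -0.30 (adjusted limma p 0.0213). Mapk8ip3 in WT went from 28836, 26437 and 25083 at 12 h to 22241, 23775 and 23753 at 48 h, without overlap, with a log2 fold change of -0.20 (SE 0.086, adjusted limma p 0.0626). That value passed without WT 12 h culture 5 (adjusted limma p 0.0440) or HET 48 h culture 3 (adjusted limma p 0.0371). In HET its log2 fold change was -0.17 (adjusted limma p 0.192), and -0.25 (adjusted limma p 0.0392) without HET 48 h culture 3.

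Ninein anchors microtubule minus ends, and its group means were highest at 24 h. Nin in HET went from 2266, 2177 and 2720 at 12 h to 2979, 3290 and 3614 at 24 h, and was 2291, 2953 and 2965 at 48 h. From 12 to 24 h in HET Nin rose by 0.47 on the log2 scale (SE 0.13, adjusted limma p 0.0198). The call was lost without HET 12 h culture 1 (0.0593), HET 12 h culture 2 (adjusted limma p 0.102) or HET 24 h culture 5 (0.0884). In WT, Nin went from 2378, 2456 and 2990 to 3092, 3201 and 3654, again without overlap, with a log2 fold change of 0.35 (adjusted limma p 0.127), and was 2435, 3049 and 2862 at 48 h. The change of Nin from 24 to 48 h passed in neither genotype: it was -0.26 in WT (adjusted limma p 0.149) and -0.27 in HET (adjusted limma p 0.263). Bicd1 stayed between 4246 and 5295 in all 18 cultures, and its log2 fold changes with time ran from -0.14 to 0.11.

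From 12 to 24 h the calls were 1 of 9 in WT (Bicd2), where 3.62% of all genes passed (0.657% lower), and 2 of 9 in HET (Bicd2 and Nin), where 18.9% passed (5.76% lower). Groups of these times did not overlap for 2 of 9 adaptors and 26.9% of all genes in WT, and for 3 of 9 and 38.4% in HET. From 24 to 48 h they were 5 of 9 in WT, where 27.7% passed (17.4% higher and 10.3% lower), and 0 of 9 in HET, where 2.49% passed (1.42% higher) and 2 adaptors (Bicd2 and Mapk8ip3) had an unadjusted p under 0.05. The WT set held Rilp (1.03, adjusted limma p 0.0131) and Hook2 (0.43, adjusted limma p 0.0460), which rose, and Spag9 (-0.37, adjusted limma p 0.0125), Mapk8ip3 (-0.28, adjusted limma p 0.0240) and Hook3 (-0.31, adjusted limma p 0.0489), which fell. Groups did not overlap for these 5 and for Nin (lower at 48 h), 6 of 9, as for 46.0% of all genes. In HET they did not overlap for 3 of 9 (Bicd2, Nin and Hook2) and 18.3% of all genes. All 5 calls depend on 1 culture or another. Spag9 lost its call without WT 48 h culture 2 (adjusted limma p 0.0722), and Rilp without WT 48 h culture 1 (0.0567) or culture 2 (adjusted limma p 0.0692). Mapk8ip3 lost it without WT 24 h culture 1 or 2 or WT 48 h culture 1 or 2 (adjusted limma p 0.0564 to 0.0881). Hook2 lost it without any 1 of 10 cultures (adjusted limma p 0.0520 to 0.137): all 6 compared, HET 12 h culture 5, HET 24 h culture 2 and HET 48 h cultures 1 and 2. Hook3 lost it without any 1 of 13 cultures (adjusted limma p 0.0501 to 0.203). These were 5 of the 6 compared (all but WT 48 h culture 3), WT 12 h cultures 1 and 2, HET 12 h culture 1, all HET 24 h cultures and HET 48 h cultures 1 and 2.

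**Figure D3:**
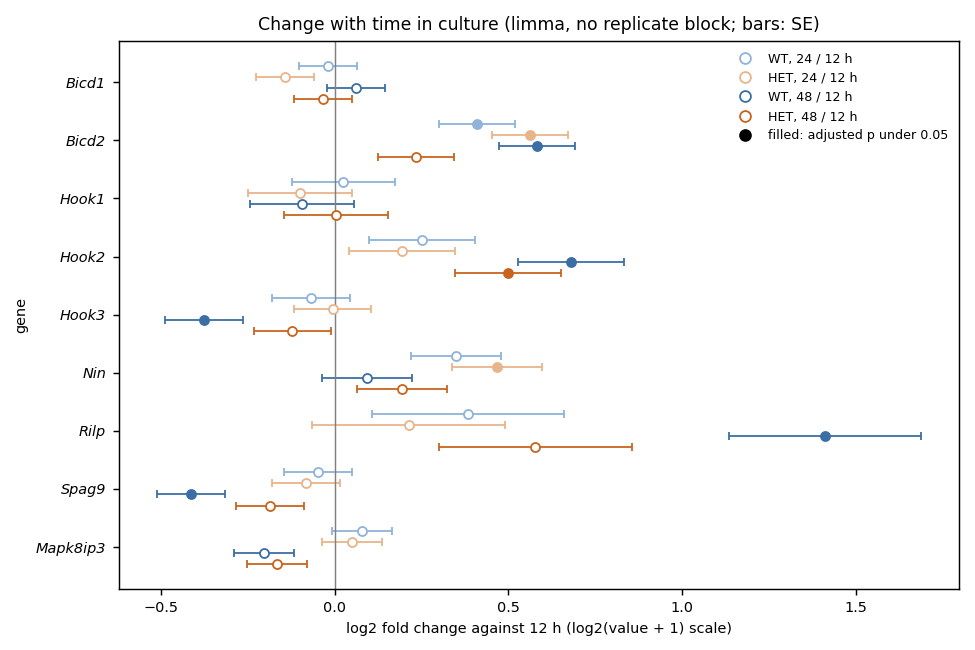
Log2 fold change against 12 h (horizontal axis, log2(value + 1) scale) for each adaptor at 24 h (pale) and 48 h (dark) in WT (blue) and HET (orange), with bars for the SE and filled points for an adjusted limma p under 0.05. At 48 h in WT, Rilp lies farthest right (1.41) and Spag9 farthest left (-0.41), and of the HET points at 48 h Hook2 (0.50) is filled.

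Makeup within a family was read from FPKM shares, as a description without a test. In the BICD pair, the WT share of Bicd2 at 12, 24 and 48 h was 67.5 ± 3.0%, 73.7 ± 0.95% and 74.8 ± 3.5% (mean ± SD of 3 cultures, as for the other shares). In HET its share was 64.7 ± 2.6%, 74.9 ± 3.0% and 68.9 ± 0.62% at those times. At 48 h it was 71.0 to 78.0% in WT cultures and 68.2 to 69.3% in HET cultures, without overlap. Of the 3 Hook genes, Hook2 made 11.5 ± 2.1% at 12 h and 20.3 ± 0.32% at 48 h in WT, against 11.4 ± 2.2% and 16.1 ± 0.91% in HET. Its 48 h share was 20.0 to 20.7% in WT cultures and 15.2 to 17.1% in HET cultures, again without overlap. Hook3 went from 69.0 to 59.3% of the Hook family between 12 and 48 h in WT and from 66.2 to 61.3% in HET, as group means. At 48 h its share was 58.2 to 60.8% in WT cultures and 61.2 to 61.5% in HET cultures, without overlap. Of the JIP pair, Mapk8ip3 held 63.6 to 67.0% as group means. At 48 h it held 65.3 to 69.7% in WT cultures and 62.9 to 65.0% in HET cultures, also without overlap. Shares of a family add up to the whole, so they are not independent. By normalized count, the genotypes did not overlap for 24.0% of all genes at 48 h and 15.1% at 12 h. No such figure was computed for shares.

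**Figure D4:**
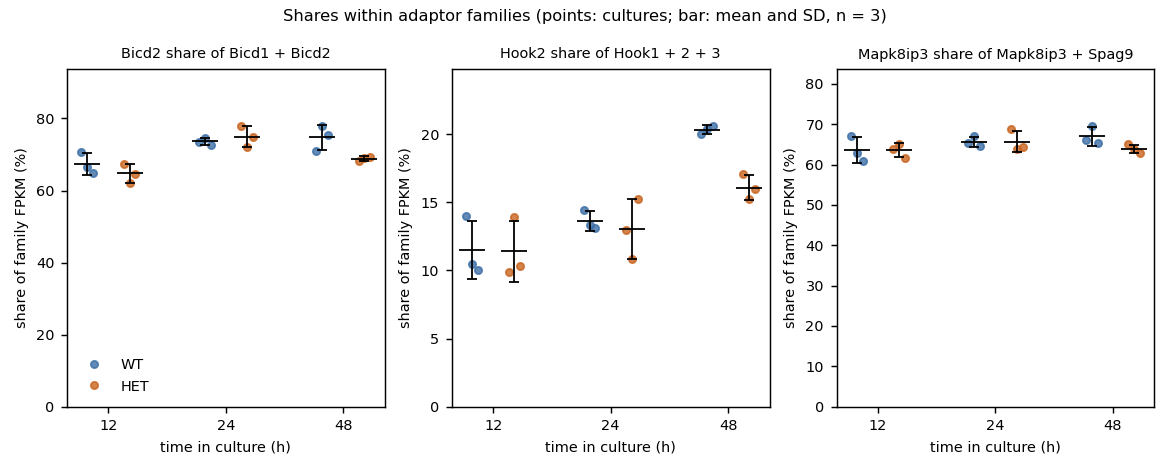
Share of a family's summed FPKM in percent (vertical axis, from 0) held by Bicd2, Hook2 and Mapk8ip3 against time in culture, with points for single cultures (blue WT, orange HET) and bars for the mean and SD of 3. At 48 h the Bicd2 share is 71.0 to 78.0% in WT and 68.2 to 69.3% in HET, and the Hook2 share 20.0 to 20.7% in WT and 15.2 to 17.1% in HET. The Mapk8ip3 share at 48 h is 65.3 to 69.7% in WT and 62.9 to 65.0% in HET.

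A list of 18 other dynein adaptors and relatives was read beside the 9. Between genotypes 0 of 18 passed at any time or in the average, and 4 of 18 had an unadjusted p under 0.05 at 48 h. With the replicate block at 48 h, 2 of 18 passed, as did 12.3% of all genes. Trak1, an adaptor of mitochondria, was higher in HET (0.50, adjusted limma p 0.00278). Rilpl1, a RILP relative, was lower in HET (-0.43, adjusted limma p 0.0177). From 12 to 48 h in WT, 2 of 18 rose and 3 fell, where 30.0% of all genes rose and 17.1% fell. Spdl1, the dynein adaptor of kinetochores in dividing cells, rose by 1.65 (SE 0.22, adjusted limma p 4.49e-05) and Rilpl1 by 0.76 (SE 0.13). Trak1 (-0.79, SE 0.13), Ccdc88c (-1.26, SE 0.30) and Rasef (-0.86, SE 0.27) were lower. In HET the same comparison had 2 higher, Spdl1 (1.08, SE 0.22) and Rilpl1 (0.56, SE 0.13), and 0 lower. Of all genes 10.6% were higher there and 3.62% lower. The 4 cycling markers also rose in WT from 12 to 48 h, and their part in the Spdl1 value was not tested.

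Of 22 partner genes, the Rabs, cargo links and motor subunits that the adaptors bind, 0 passed between genotypes at any time or in the average, with 4 at an unadjusted p under 0.05 at 48 h. With the replicate block at 48 h, 3 of 22 passed, beside 12.3% of all genes: Rab34 (-0.98), Rab6b (0.35) and Dctn1 (0.32). From 12 to 48 h in WT, 4 of 22 rose and 5 fell, beside 30.0% and 17.1% of all genes. The largest rise was that of Rab34, a Rab that binds RILP (1.66, SE 0.26), followed by Rab8a (0.70), Kif5b (0.30) and Rab5c (0.30). Among those that fell were Dctn1, the dynactin subunit p150Glued (-0.63, SE 0.088), Rab6b, a neuronal Rab6 bound by BICD proteins (-0.86, SE 0.12), Rab36 (-0.81, SE 0.20) and Osbpl1a, the sterol sensor ORP1L that works with RILP (-0.38, SE 0.12). In HET 2 of 22 rose, Rab34 (1.10) and Rab8a (0.38), and 1 fell, Dctn1 (-0.35), beside 10.6% and 3.62% of all genes.

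For each adaptor the 3 genes most alike in pattern were found among 13592 genes by Pearson r over the 18 cultures, as a description: the cultures share time, genotype and scaling. They were Helb, Alms1 and Scarf2 for Bicd2 (r of 0.97 each) and Otud4, Mapre1 and Nnat for Spag9 (0.98, 0.96 and 0.96). Mapre1 encodes the microtubule plus-end protein EB1. Those for Mapk8ip3 were Vps37b, Itpkc and Fam214b (0.97, 0.97 and 0.96), and those for Rilp were Tardbp, which encodes the RNA-binding protein TDP-43, St3gal3 and Eif1b (0.96, 0.95 and 0.95). Hook3 was nearest to Pou2f1, Dennd4c and Hipk3 (0.94, 0.94 and 0.93) and Hook2 to B9d1, a ciliary transition zone gene, Lipt2 and Zfp94 (0.93, 0.90 and 0.90). Nin was nearest to Dhx40, Map4k5 and Cmtm6 (0.91, 0.91 and 0.91). The lowest r were those of Hook1, with 2900055J20Rik, Zbtb41 and Usp7 (0.86, 0.85 and 0.82), and of Bicd1, with Ccdc148, Scai and 2610002M06Rik (0.79, 0.78 and 0.78).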

How the data were processed

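RNA of 18 DRG cultures was sequenced, 3 for each genotype and time. Groups and replicate numbers come from the sample titles (1, 2 and 5 at 12 and 24 h, 1, 2 and 3 at 48 h). CASAVA 1.8.2, edgeR and mm10 are named in the submitters' processing notes, and the aligner, counting method and annotation are not given in the sources used here. Per the file headers, the authors deposited normalized counts, a signal rather than raw counts: none was a whole number or 0, and the totals of the columns were 41509705 to 41509874. A further set of signal columns carries no label (totals 39465712 to 44213485). FPKM values, log2 fold changes, p-values with adjusted p-values and a rank score were deposited by the authors as well, and the score was not used. Read from the log2 values of the columns without a label, 2 of the 17 directions possible among the samples are missing. Depth is therefore unknown, and precision rests on the spread between cultures.

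The planned count test needs raw counts, so limma 3.58.1 in R 4.3.3 was run on log2(normalized count + 1), with 1 coefficient per group over all 18 cultures, a trend of variance on mean level (residual degrees of freedom 12, prior 4.97) and Benjamini-Hochberg adjustment over all 17198 genes within each of 11 comparisons. The fit was tested on simulated data. A filter at a mean of 1 removed 0 genes. Fold changes on this scale understate changes of low genes. Levels are compared between genes in FPKM only.

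The 9 adaptors, the lists of 18 and 22 genes and the marker lists were chosen with earlier results of these data known. By rule all 9 are described. From the lists, at most the 4 lowest p-values in each direction from 12 to 48 h are named, and any gene past the threshold between genotypes. Those named with the replicate block were chosen after their values were seen, as that fit is an alternative. Pairing by replicate number was checked from correlated deviations of same-numbered WT and HET cultures. The r was 0.32, 0.21 and 0.46 at 48 h, over 0.1 in every pair, so the block is given there. It was 0.19, 0.03 and 0.16 at 12 h and 0.11, -0.21 and 0.26 at 24 h. Deviations within a group sum to 0, so these r are not independent. The block fit pairs the cultures of 12 and 24 h as well, though the check does not. Its variance, with 6 residual degrees of freedom, is pooled over all times. Alternatives were the block, another pseudocount (0.1), a filter at a mean of 5, the unlabelled columns, only the groups compared, the missing directions as covariates, and each culture left out. Leaving out both 48 h cultures numbered 3 was chosen after seeing the data.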

Additional observations from a re-analysis of the deposited data

How the results depend on the processing

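A pseudocount of 0.1 or a filter at a mean of 5 changed no call among the 26 adaptor results at an unadjusted p under 0.05. None of these 26 reversed under any setting run. Counts of adaptors past the threshold moved as follows. Shares in parentheses are those of all genes past the threshold in the same fit, which moved with most of them. With the replicate block as pairing the counts were 2 for HET against WT at 48 h (12.3%; 0 without the block), 2 from 12 to 24 h in WT (9.43%; 1 without), 3 from 24 to 48 h in WT (31.2%; 5 without), 1 from 24 to 48 h in HET (16.8%; 0 without) and 4 from 12 to 48 h in HET (30.8%; 1 without). The count moved by less than 1.5 times elsewhere. The 3 added from 12 to 48 h in HET were Rilp (0.90, adjusted limma p 0.0136), Spag9 (-0.29, adjusted limma p 0.0371) and Mapk8ip3 (-0.29, adjusted limma p 0.0247). From 24 to 48 h in WT the block fit gave 0.34 for Hook2 (adjusted limma p 0.165) and -0.32 for Hook3 (adjusted limma p 0.0926). By the check, the numbers pair cultures of the 2 genotypes at 48 h alone. No culture of 12 or 24 h is numbered 3. In comparisons of 48 h with an earlier time, the block therefore leaves no weight on the 48 h cultures numbered 3. Its values there reflect the loss of these cultures and not pairing alone. With the unlabelled columns the counts from 12 to 24 h in WT and from 12 to 48 h in HET were 0 (2.52%) and 0 (11.2%). With the missing directions as covariates they were 2 (6.58%) and 0 (13.0%), and with only the groups compared the 12 to 48 h count in HET was 0 (0%). Without both 48 h cultures numbered 3 the HET counts were 2 from 24 to 48 h (14.9%) and 3 from 12 to 48 h (28.2%). Why those cultures differ from the others was not tested. Leaving out each culture in turn gave 0 to 2 for HET against WT at 48 h (0 to 5.41%). In WT it gave 0 to 1 from 12 to 24 h (0 to 6.51%), 0 to 5 from 24 to 48 h (13.0 to 31.4%) and 4 to 6 from 12 to 48 h (35.1 to 49.2%). In HET it gave 1 to 2 (6.63 to 23.1%), 0 to 1 (0 to 14.9%) and 0 to 3 (0 to 28.4%) for these times. It gave 0 to 0 for the remaining comparisons (0 to 0.0174%). DESeq2 was not run, as the values are not counts, and depth limits cannot be stated. Over all settings run, the limma adjusted p at 48 h was 0.00641 to 0.394 for Bicd2, 0.0105 to 0.449 for Rilp and 0.0580 to 0.599 for Spag9.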
